A study of Homo sapiens with 12 samples.

Results

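The baseline state of MOLT4 cells was described from the 3 libraries of vehicle-treated cells, out of 12 libraries in the series. MOLT4 is an established human line of T-cell acute lymphoblastic leukemia (T-ALL), a cancer of immature T cells. The cells were grown in RPMI medium with 10% serum and penicillin and streptomycin and held for 6 h in 0.1% DMSO, the solvent of the study's compounds, and the other 9 libraries, treated with NVP-2, SNS-032 or the SNS-032-based degrader THAL-SNS-032, were not used. Poly(A) RNA was sequenced with a stranded kit, and synthetic spike-in RNAs (ERCC) were added when the cells were lysed. All libraries came from this 1 line, and the labels do not say whether they came from separate cultures, so the spread between them may be technical. Levels are in FPKM, sequenced fragments scaled to transcript length, a unit that is per length and so allows genes to be compared. FPKM is by definition also scaled to library size. The deposited values are labelled as normalized, however, and how the spike-ins entered their scale is not given. A gene was counted as expressed where its mean over the 3 libraries was 1 FPKM or more, which held for 12183 of 23619 gene names.

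T cells mature in the thymus through ordered stages. Early cells rearrange their receptor genes with the RAG recombinase and terminal transferase, cortical cells carry CD1 molecules, pre-T-cell receptor and both CD4 and CD8, and later cells leave with a complete receptor bound to the CD3 chains. T-ALL arrests this course and often switches on a transcription factor that normal thymocytes have shut off, with NOTCH1 signalling and loss of the CDKN2A locus as other common events.

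Gene levels fell into a low and a high population with a trough between them. Of the names, 51.6% were expressed, and the median over all names was 1.33 FPKM against 25.0 FPKM over the expressed ones. Replicates 1, 2 and 3 had 12083, 11972 and 12189 names at 1 FPKM or more (12081 ± 109, SD, n = 3). In all 3 libraries 11714 names reached that level and 757 did so in some of them only. The low population sat at a floor: no value was 0, and 4201 names (17.8%) shared exactly 0.102, 0.104 and 0.104 FPKM in the 3 libraries. A value near that floor is therefore described as low, not as a level, and no fold is taken against it. The table holds no counts, so read depth and counting error are unknown.

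**Figure D1:**
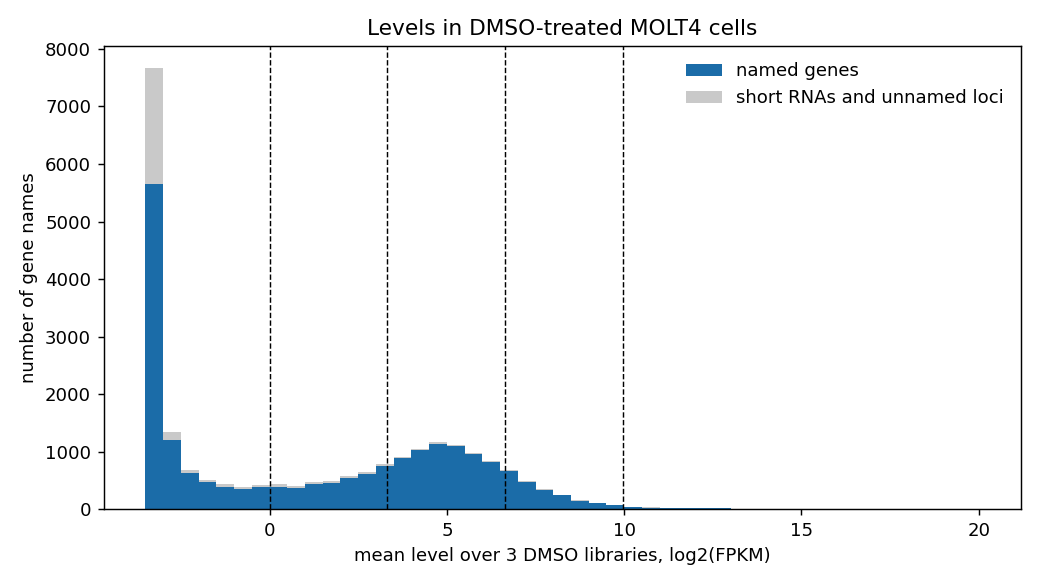
Number of gene names (vertical axis) by mean level over the 3 DMSO libraries, log2(FPKM) (horizontal axis), with named genes in blue, short RNAs and unnamed loci in grey, and dashed lines at 1, 10, 100 and 1000 FPKM. The named genes thin out to 357 names between 0.5 and 0.707 FPKM and peak at 1128 names between 22.6 and 32.0 FPKM.

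Most expressed names lay within a moderate range. There were 3530 names between 1 and 10 FPKM, 6563 between 10 and 100, 1888 between 100 and 1000 and 202 at 1000 or more. Without 2846 short RNAs and unnamed loci, 11680 of 20773 names were expressed (56.2%). By the gene classes of RefSeq, 11047 of 18838 protein-coding genes were expressed (58.6%), with a median of 27.2 FPKM over those expressed. Counts in the lists of protein-coding genes below are to be read beside this share. Long non-coding RNAs were expressed less often, 346 of 1255 (27.6%), and at a lower median of 4.09 FPKM. Genes at the threshold include BBC3, the pro-apoptotic PUMA, at 0.994 FPKM and the interleukin-7 receptor chain IL7R at 0.979 just outside, and HSPA2 at 1.02 and the basic helix-loop-helix factor TAL2 at 1.04 just inside.

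The most abundant messages mainly encoded the protein synthesis machinery. Of the 20 highest named genes 14 encoded cytosolic ribosomal proteins, led by RPS27 at 9933, 12587 and 12578 FPKM in replicates 1, 2 and 3. GAPDH, the only glycolytic enzyme among the 20, stood at 8463, 11318 and 10924 FPKM. The glycolysis list as a whole had a median of 59.5 FPKM, with 24 of 30 genes expressed. PTMA, an acidic nuclear protein of dividing cells, stood at 7743, 9813 and 10013 FPKM. RPS27, GAPDH and PTMA were lowest in replicate 1, and so were the other named genes above 1000 FPKM, as described with the replicate spread. TMSB4X, an actin-binding peptide, averaged 9510.3 ± 885.5 FPKM (SD, n = 3) and ACTG1, a cytoplasmic actin, 6965 ± 882. The elongation factor EEF1A1 averaged 6833 ± 849 FPKM and TPT1, a tumor protein under translational control, 8298 ± 1038.5.

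Ribosomal protein genes alone took 26.7 ± 0.749% of the summed FPKM of named genes, and 82 of the 85 listed were expressed, 72 of them at 1000 FPKM or more. The remaining 3, RPL39L, RPL3L and RPL10L, are tissue-restricted paralogs and lay at 0.341, 0.126 and 0.103 FPKM. Actin, tubulin and other cytoskeletal genes took 3.59 ± 0.125%, translation factors 2.65 ± 0.0596%, respiratory chain subunits 2.33 ± 0.0121%, glycolysis 1.71 ± 0.0748% and heat shock proteins 1.20 ± 0.0146%. The CD3 and receptor signalling genes took 0.469 ± 0.0104%. The 10 highest named genes held 7.36 ± 0.277% of the sum, the highest 100 held 36.5 ± 1.097% and the highest 1000 held 69.5 ± 1.26%. Reads of ribosomal protein genes can be shared with their pseudogenes, and RPL13AP5 (5533 ± 733 FPKM) and RPL21P28 (2401 ± 362 FPKM) are pseudogenes among the 10 highest names outside the gene lists.

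Among those 10 there were also genes of other functions. NPM1, the nucleolar protein nucleophosmin, averaged 3548 ± 371 FPKM and GNB2L1, the ribosome-bound scaffold RACK1, 3272 ± 427. ARHGDIB, a regulator of small GTPases in blood cells, stood at 2467, 3132 and 3110 FPKM. FXYD2, the gamma subunit of the sodium pump and best known from kidney, stood at 2314, 2785 and 2820 FPKM. Its level was close to that of MYL6, a myosin light chain (2641 ± 350 FPKM), and FXYD2 and MYL6 did not differ beyond their spread.

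Promoters that hold TATAAA, of abundant and histone genes, or CCAAT, of mitotic genes, are shown as examples. These motifs differed in frequency between some gene sets and all promoters. The examples hold the motif and so do not represent their sets. TATAAA on the sense strand, in the window described below, was in only 4.86% of promoters of genes at 1000 FPKM or more (7 of 144). Each promoter shown is the 120 bases before the first start that RefSeq lists (GRCh38.p14), written 5′ to 3′ on the gene's strand. Capitals mark TATAAA on the sense strand in the first 4, and CCAAT or its reverse complement ATTGG in the last 2.
RPLP0: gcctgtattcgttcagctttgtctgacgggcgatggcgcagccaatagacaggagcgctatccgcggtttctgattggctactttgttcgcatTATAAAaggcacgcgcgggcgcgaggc
RPS28: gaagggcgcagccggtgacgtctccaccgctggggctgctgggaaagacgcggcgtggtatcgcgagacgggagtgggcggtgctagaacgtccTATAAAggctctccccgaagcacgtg
H2AFZ: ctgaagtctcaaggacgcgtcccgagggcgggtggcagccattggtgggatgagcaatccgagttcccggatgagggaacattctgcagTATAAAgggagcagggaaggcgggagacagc
HIST1H4K: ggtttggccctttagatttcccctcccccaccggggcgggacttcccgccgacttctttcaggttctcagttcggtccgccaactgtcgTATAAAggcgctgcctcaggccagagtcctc
CKS2: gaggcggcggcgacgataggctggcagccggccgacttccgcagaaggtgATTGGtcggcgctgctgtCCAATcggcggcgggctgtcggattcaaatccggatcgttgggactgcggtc
PTTG1: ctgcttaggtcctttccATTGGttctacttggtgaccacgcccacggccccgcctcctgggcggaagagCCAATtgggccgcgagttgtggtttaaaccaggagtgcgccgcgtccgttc
They lie at chr12:120201112-120201231 (minus strand) for RPLP0, a ribosomal stalk protein, and at chr19:8321376-8321495 (plus) for RPS28, a small-subunit protein. The histone promoters lie at chr4:99950276-99950395 (minus) for H2AFZ and chr6:27831561-27831680 (minus) for HIST1H4K. The mitotic genes lie at chr9:89311075-89311194 (plus) for CKS2, a subunit of cyclin-dependent kinases, and chr5:160421735-160421854 (plus) for PTTG1, the separase inhibitor securin. In lower case, RPLP0 and H2AFZ also hold CCAAT or ATTGG, which was not marked there, and in PTTG1 an ATTGG that overlaps the marked CCAAT is partly in lower case.

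Motifs were searched in 250 bases before to 50 after each start, in all 27303 promoters of the RefSeq table and in the gene sets of which at least 80% had a promoter there. CCAAT on either strand was in 35.7% of all promoters, in 75% of those of G2/M genes (21 of 28), in 65.5% of those of G1/S genes (19 of 29) and in 83.1% of those of replication-dependent histone genes (49 of 59). TATAAA on the sense strand, starting 20 to 40 bases before the start, was in 2.55% of all promoters and in 55.9% of histone promoters (33 of 59). Among genes at 1000 FPKM or more it was in 4.86% (7 of 144), and among those between 10 and 100 FPKM in 0.793% (42 of 5295). CCGGAAG on either strand was in 10.7% of all promoters, in 22.5%, 26.04% and 27.1% of those of genes between 10 and 100, between 100 and 1000 and at 1000 FPKM or more, and in 33.8% of ribosomal protein promoters (23 of 68). The median GC content was 58.3% over all promoters and 65.3%, 64.7% and 61.3% in those 3 classes. No 2 of these motifs share 3 letters in a row, and a match describes letters only, not a bound site. Over all named genes, the classes under 10 FPKM and the CD3, surface and thymocyte lists the search is void, because fewer than 80% had a promoter in the table.

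Messages for CD3 chains and receptor signalling were nearly all expressed, from a list without the receptor's own alpha, beta, gamma or delta chain genes. Of 19 genes for CD3 chains and receptor signalling 18 were expressed, with a list median of 159 FPKM. Over all names the share and median were 51.6% and 1.33 FPKM, and over protein-coding genes 58.6% and 4.63 FPKM. CD3D, a signalling chain of the receptor complex, stood at 1726, 2254 and 2154 FPKM in replicates 1, 2 and 3. CD3E, another such chain, stood at 759, 968 and 959.8 FPKM. CD247, the zeta chain, stood at 196, 220.3 and 241 FPKM and CD3G at 173, 193 and 202. CD3D was thus the highest chain in every library and CD3G the lowest, and CD3G lay below CD247 in each. The kinases that act on these chains were high too: ZAP70, which binds phosphorylated zeta chain, averaged 651 ± 89.4 FPKM (SD, n = 3), and LCK, the Src-family kinase that phosphorylates it, 489.6 ± 57.4. The adaptor LAT averaged 434 ± 42.0 FPKM. TXK, a Tec-family kinase, was the single member under 1 FPKM, at 0.264, 0.334 and 0.304.

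Surface antigens ranged more widely, with 16 of 19 expressed and a median of 14.9 FPKM. The early T-lineage antigen CD7 averaged 234 ± 35.1 FPKM, the adhesion receptor CD2 147 ± 10.7 and the inhibitory coreceptor CD5 60.6 ± 6.00. CD99, a glycoprotein strong on immature T cells, was highest at 801 ± 95.5. CD8A and CD8B, the chains of the coreceptor for class I, stood close together at 14.0, 14.1 and 14.9 FPKM and at 14.2, 14.1 and 16.3. CD4, the coreceptor for class II, was lower at 2.48, 2.47 and 3.11 FPKM, below CD8A and CD8B in every library. Of the costimulatory receptors, ICOS averaged 10.6 ± 2.21 FPKM, CD28 5.52 ± 0.899, TNFRSF4 3.997 ± 0.558 and CD27 2.03 ± 0.217. THY1, CD40LG and CTLA4, the last a brake on activated T cells, lay at 0.147, 0.124 and 0.108 FPKM. In bulk RNA, a low level from few cells and one from little RNA per cell cannot be told apart.

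Thymocyte stage genes ranged widely in level, and early, cortical and late genes each included higher and lower members. Of 24 genes 19 were expressed, with a median of 23.1 FPKM. The lipid-presenting CD1 molecules of cortical thymocytes were led by CD1E at 740.2, 863 and 864 FPKM. CD1B stood at 429, 510.3 and 512 FPKM, CD1A averaged 149.9 ± 8.62, CD1C 37.7 ± 1.37 and CD1D 22.1 ± 2.13. All 5 CD1 genes were expressed in that order in each of the 3 libraries, and CD1E held 54.3 ± 0.196% of their sum. DNTT, the terminal transferase that adds bases at receptor joints, stood at 546, 645 and 678 FPKM. The recombinase genes RAG1 and RAG2 averaged 57.3 ± 3.96 and 24.4 ± 1.28 FPKM, and PTCRA, the pre-T-cell receptor alpha chain, 24.1 ± 2.95. RAG2 and PTCRA did not differ beyond their spread. CCR9, the receptor that guides cells to the thymus and gut, averaged 91.0 ± 9.64 FPKM.

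Of genes known from early progenitors, KIT, IL2RA, CD34 and IL7R were near the floor or low, while CD44 averaged 18.8 ± 1.49 FPKM. KIT, the stem cell factor receptor, stood at 0.198, 0.213 and 0.112 FPKM, and IL2RA, the interleukin-2 receptor alpha chain of the double-negative stage and of activated cells, lay near the floor. CD34, a progenitor antigen, averaged 5.24 ± 0.769 FPKM. IL7R crossed the threshold between libraries, at 1.23, 0.865 and 0.846 FPKM. Genes of thymic exit were mixed, with CCR7 at 0.918 and KLF2 at 0.647 FPKM but the sphingosine receptor S1PR1 at 12. The GIMAP GTPases, which support lymphocyte survival, were all expressed (7 of 7), from GIMAP4 at 6.33 ± 1.00 to GIMAP7 at 234 ± 25.4 FPKM.

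**Figure D2:**
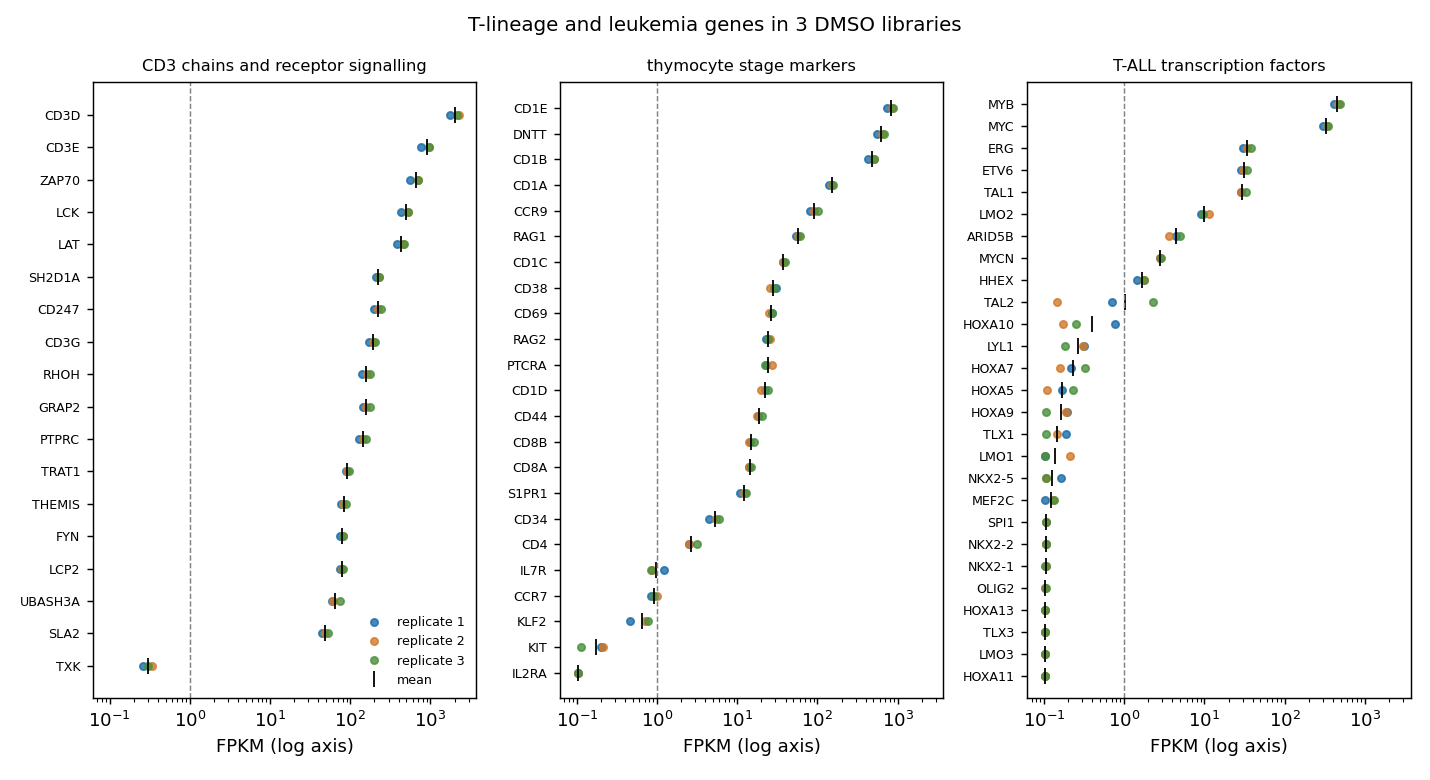
Level of members of 3 gene lists, FPKM on a log axis, with 1 point for each of the 3 DMSO libraries, a vertical tick at the mean and a dashed line at 1 FPKM. Points of a gene lie close together for expressed members such as CD3D (1726 to 2254 FPKM), while 17 T-ALL transcription factors lie under the line.

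Transcription factors of the T lineage were expressed in 21 of 25 cases, with a median of 64.5 FPKM. TCF7, the TCF-1 factor of T-cell commitment, stood at 840.3, 1042 and 1072 FPKM. Its relative LEF1 stood at 424, 498 and 517 FPKM. TCF7 lay above LEF1 in all 3 libraries. SOX4 averaged 230.03 ± 25.2 FPKM, TCF3, the E protein E2A, 188 FPKM and RUNX1 126 ± 13.3. BCL11B, which locks in T-cell identity, averaged 56.2 ± 4.18 FPKM, and GATA3 30.5 ± 2.48. The factors that were low belong to later fates: RUNX3, of CD8 cells, averaged 0.967 ± 0.138 FPKM, and ZBTB7B, of CD4 cells, lay at 0.126, 0.105 and 0.105. ZBTB16, of innate-like T cells, was also low at 0.154 FPKM and TOX2 at 0.553.

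Of the oncogenic transcription factors of T-ALL, 11 of 28 were expressed (39.3%), against 51.6% of all names and 58.6% of protein-coding genes. The list had a median of 0.200 FPKM, against 1.33 FPKM over all names, and 8 members lay within 10% of the floor in all 3 libraries. MYB, a factor of immature blood cells, stood at 411, 462 and 493 FPKM. MYC, the growth regulator, stood at 299.7, 340.2 and 352 FPKM. These were the only members above 100 FPKM. TAL1, the basic helix-loop-helix factor that names the most frequent T-ALL subtype, stood at 28.6, 28.2 and 32.8 FPKM. Its partner LMO2 stood at 9.05, 11.3 and 9.48 FPKM. TAL1 and the ETS factors ERG (34.2 ± 3.82) and ETV6 (31.0 FPKM) did not differ beyond their spread. Within libraries, though, ERG and ETV6 each lay above TAL1 in all 3.

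The drivers of other T-ALL subtypes were low. TLX3 lay at the floor in every library, TLX1 stood at 0.191, 0.146 and 0.105 FPKM, and LMO1 at 0.102, 0.209 and 0.104. LYL1, a relative of TAL1, averaged 0.268 ± 0.0736 FPKM and HOXA9 0.162 ± 0.0497. MEF2C and SPI1, genes of early T-cell precursor leukemia, averaged 0.122 and 0.107 FPKM. TAL2 differed most between libraries, at 0.705, 0.145 and 2.26 FPKM, so its mean of 1.04 rests on replicate 3. In the T-ALL families with several possible drivers, 1 member held nearly all of the sum: TAL1 96.0 ± 2.72% of TAL1, TAL2 and LYL1, LMO2 97.7 ± 0.304% of LMO1 to LMO3, and MYC 99.1 ± 0.0711% of the 3 MYC genes.

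NOTCH1, NOTCH2 and NOTCH3 and the enzymes that cut the receptors were expressed, while NOTCH4 and the ligands were under 1 FPKM. The list had 21 of 34 members expressed (61.8%), near the 58.6% of all protein-coding genes, with a median of 13.6 FPKM. NOTCH1, the receptor most often mutated in T-ALL, stood at 102, 118 and 127 FPKM and held 86.0 ± 0.921% of the sum of the 4 receptors. NOTCH2 averaged 13.8 ± 1.42 FPKM, NOTCH3 4.77 ± 0.833 and NOTCH4 0.281 ± 0.0142. The gamma-secretase subunits PSENEN, APH1A and NCSTN averaged 151, 147 and 34.9 FPKM, and the DNA-binding partner RBPJ 57.0. Targets were split: HES1 stood at 52.7, 61.2 and 56.3 FPKM and DTX1 at 27.5, 32.3 and 35.03, but NRARP averaged 0.235 ± 0.0233 and HEY1 0.175 ± 0.0283. All 5 ligands were under 1 FPKM: DLL3 averaged 0.531 FPKM, DLL1 0.311, JAG1 0.261, JAG2 0.152 and DLL4 0.117.

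Tumor suppressor and signalling genes of T-ALL were expressed in 44 of 46 cases, with a median of 65.4 FPKM. Both members under 1 FPKM come from 1 locus and encode inhibitors of CDK4 and CDK6. CDKN2A stood at 0.227, 0.123 and 0.126 FPKM and CDKN2B at 0.185, 0.154 and 0.131. Of the kinase inhibitors of the other family, CDKN1B averaged 56.9 FPKM, and CDKN1A stood at 1.36, 1.20 and 1.40. The kinases that CDKN2A and CDKN2B inhibit were high, CDK6 at 308, 331 and 375 FPKM and CDK4 at 265, 318 and 328, as was CCND3, their cyclin, at 284, 352 and 354.5. CCND3 held 99.1 ± 0.260% of the sum of the 3 D-type cyclins. The histone methyltransferase EZH2 averaged 225 ± 22.4 FPKM and the cell cycle brake RB1 118 ± 10.8. A message does not show whether the protein is intact, and mutations were not analysed here.

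Survival and death genes of the BCL2 family were expressed in 29 of 34 cases, with a median of 16.0 FPKM. Among the survival proteins, BCL2L1 stood at 90.9, 99.3 and 104 FPKM. MCL1, a short-lived survival protein, stood at 85.7, 93.9 and 98.9 FPKM. BCL2 itself was lower, at 6.43, 6.68 and 7.65 FPKM. BCL2L1 and MCL1 overlapped in their ranges, though BCL2L1 was the higher in every library, and BCL2 lay below both in each. The death effectors BAX and BAK1 averaged 159 ± 13.8 and 60.7 FPKM. Of the sensors, PMAIP1 averaged 55.3 FPKM and BCL2L11 16.8, and BBC3 crossed the threshold at 0.786, 0.786 and 1.41. BIRC5, the mitotic survival protein survivin, was highest at 199 ± 16.7 FPKM, and the death ligand FASLG lay at the floor at 0.103.

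All 37 genes listed as targets and partners of the study's compounds were expressed in the vehicle, with a median of 66.1 FPKM. CDK9, the kinase of the elongation factor P-TEFb that NVP-2 and SNS-032 inhibit, stood at 31.6, 37.0 and 39.7 FPKM. Its cyclin CCNT1 stood at 26.4, 25.5 and 28.4 FPKM and CCNT2 averaged 22.9. CRBN, the ubiquitin ligase receptor that THAL-SNS-032 recruits, stood at 37.5, 37.2 and 39.6 FPKM, and CDK7, another kinase that SNS-032 inhibits, at 42.7, 43.1 and 44.6. CDK9 and CRBN overlapped in their ranges, and CDK9 lay below CDK6 and CDK4 in every library. The ligase subunits RBX1 and DDB1 averaged 283 ± 14.4 and 199 ± 23.0 FPKM. HEXIM1, the P-TEFb inhibitor, made up 79.0 ± 0.625% of HEXIM1 and HEXIM2. IKZF1, a lymphoid factor known as a substrate of drug-bound cereblon, averaged 95.1 FPKM and IKZF3 6.86 ± 0.666.

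Markers of other lineages were mostly low. Over the 10 lists of other cell types 28 of 173 genes were expressed (16.2%), with a median of 0.136 FPKM. Over the T-lineage lists it was 77 of 90 (85.6%), with a median of 59.0 FPKM. The 10 lists include 1 of mature helper and regulatory T cells, and some genes are on both sides. Without these shared genes 26 of 167 were expressed (15.6%). Only 9 of the 173 reached 10 FPKM, and 61 lay within 10% of the floor in all 3 libraries. Liver and muscle markers were all under 1 FPKM (0 of 16).

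**Figure D3:**
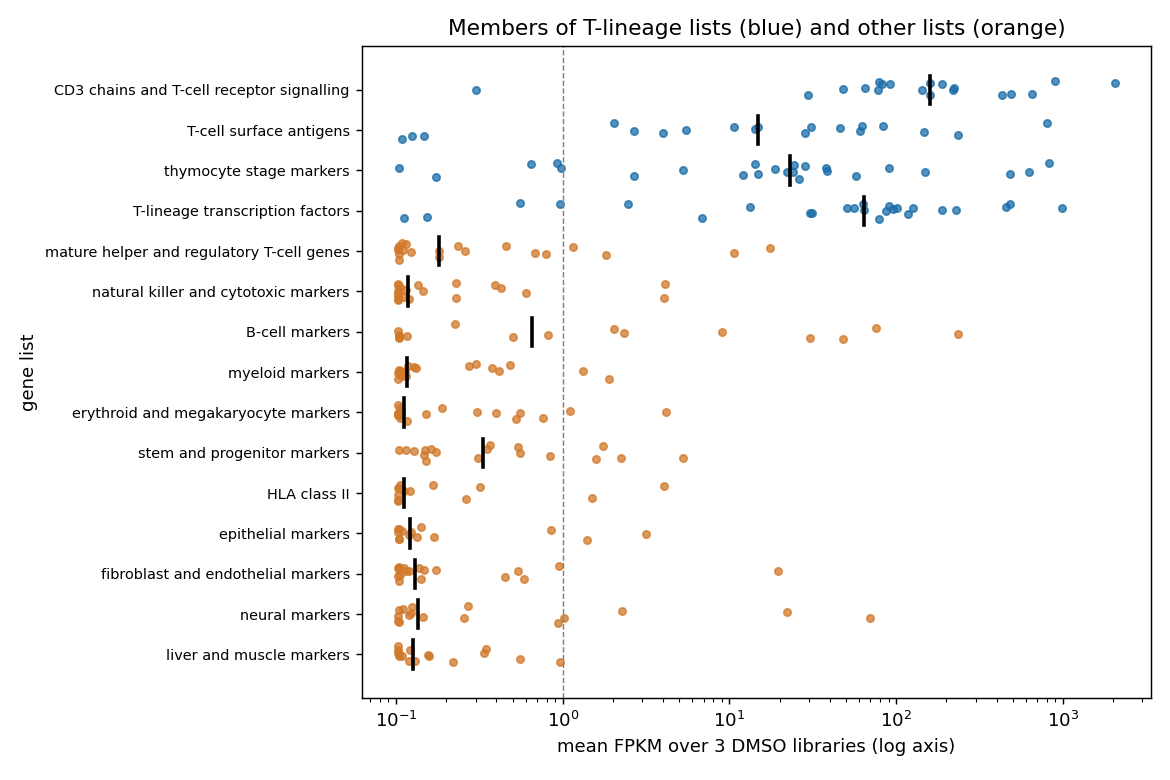
Mean level over the 3 DMSO libraries (FPKM, log axis) of each gene of 4 T-lineage lists (blue) and 11 lists of other cell types or HLA class II (orange), with a black tick at each list's median and a dashed line at 1 FPKM. The medians of the T-lineage lists run from 14.9 to 159 FPKM, and those of the other lists lie under the dashed line.

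B-cell genes were the exception in number, with 7 of 16 expressed. IGLL1 and VPREB1, the surrogate light chain of precursor B cells, stood at 199, 244 and 261 FPKM and at 69.3, 69.8 and 86.7. BLK, a Src-family kinase, averaged 48.0 ± 4.46 FPKM, the complement receptor CR2 30.5 ± 3.19 and CD79A, a signalling chain of the B-cell receptor, 9.07 ± 0.513. The genes that define the B lineage were low. PAX5 lay at 0.103, 0.105 and 0.105 FPKM, and EBF1 averaged 0.116 and MS4A1 0.104.

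The remaining lineages left few genes above 1 FPKM. In the myeloid list 2 of 20 passed, the lysosomal protein CD68 at 1.90, 1.45 and 2.38 FPKM and FCER1G, an Fc receptor chain, at 0.531, 1.09 and 2.34. In the erythroid and megakaryocyte list 2 of 20 passed, EPOR at 4.14 ± 0.326 FPKM and ITGB3 at 1.11 ± 0.300. In the natural killer and cytotoxic list 2 of 20 passed, the factor EOMES at 4.10 ± 0.784 and the granule protein NKG7 at 4.07 ± 0.281. Stem and progenitor genes passed in 4 of 18 cases, with CD34 highest, then FLT3 at 2.22 ± 0.557 FPKM, HLF at 1.75 and MEIS1 at 1.58. Myeloid S100A8 (0.103 FPKM) and CD33 (0.103) lay near the floor, and MPO was low at 0.126, 0.126 and 0.130.

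Mature T-cell genes passed in 4 of 20 cases. IL4, a cytokine of helper cells, stood at 16.5, 17.3 and 18.6 FPKM. ICOS, a costimulatory receptor, stood at 8.98, 9.79 and 13.1 FPKM. Both were well above the chemokine receptor CCR4 at 1.16 ± 0.498, and IL2, IL17A and IL21 lay at or near the floor. In the epithelial list the splicing factor ESRP1 (3.15 ± 0.504 FPKM) and the keratin KRT8 (1.39 ± 0.114) passed out of 14. PECAM1, an adhesion molecule that blood cells share, was the single one of 18 fibroblast and endothelial genes, at 18.5, 19.2 and 21.3 FPKM. In the neural list ENO2, the glycolytic enzyme neuron-specific enolase, stood at 58.3, 70.5 and 79.5 FPKM, TUBB3, a tubulin, averaged 22.01 ± 1.06, SYP 2.26 ± 0.813 and S100B 1.02 ± 0.187.

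Antigen presentation was divided by class. Of 19 class I and peptide-loading genes 18 were expressed, with a median of 185 FPKM. B2M, the class I light chain, stood at 2392, 2805 and 2864 FPKM. Class II genes passed in 2 of 13 cases, HLA-DOB at 4.04 ± 0.864 FPKM and HLA-DMA at 1.49 ± 0.211. HLA-DRA lay at 0.104, 0.106 and 0.106 FPKM, and CD74, the invariant chain, at 0.126, 0.446 and 0.216. Reads can be shared among HLA genes, and the counting of such reads is not given in the sources used here.

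Homing and cytokine receptors were expressed in 22 of 34 cases (64.7%), near the 58.6% of all protein-coding genes. IL2RG, the common cytokine receptor chain, stood at 422, 518 and 520.1 FPKM. CXCR4, the chemokine receptor for CXCL12, stood at 427, 506 and 519 FPKM. The 2 were level with each other, and the integrin ITGA4 followed at 289.6 ± 21.6. TFRC, the transferrin receptor of dividing cells, averaged 256 ± 20.6 FPKM.

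Cell division genes were broadly expressed. Of 35 replication and G1/S genes 34 were expressed, with a median of 108 FPKM, and of 34 G2/M and mitosis genes 32, with a median of 129 FPKM. PCNA, the replication clamp, stood at 1530, 1806 and 1834 FPKM. The helicase subunit MCM7 averaged 766 ± 95.0 FPKM and CKS2 889 ± 58.1. PTTG1 averaged 517 ± 41.6 FPKM, and TOP2A, the topoisomerase of dividing cells, 294 ± 25.4. The members under 1 FPKM were CCND1 (0.313 FPKM), the germline cyclin CCNA1 (0.104) and CCNB3 (0.729).

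Metabolic genes differed in how their messages were split among isoenzymes, and enzyme use was not measured. Nucleotide genes were expressed in 28 of 30 cases, led by ADA, the adenosine deaminase that immature T cells need, at 2565, 3253 and 3283 FPKM. That was far above the next, the thymidylate synthase TYMS at 761 ± 71.6 FPKM. The members under 1 FPKM were SAMHD1, the dNTP hydrolase, at 0.272, 0.258 and 0.272, and CTPS2 at the floor. CTPS1, the other CTP synthase, averaged 137 FPKM. Lactate dehydrogenase was split, with LDHB holding 63.9 ± 0.650% and LDHA most of the rest, and hexokinase likewise, with HK1 holding 55.5 ± 1.47% beside HK2. ALDOA held 96.7 ± 0.375% of the aldolases and ENO1 96.3 ± 0.301% of the enolases. The mitochondrial IDH2 held 92.8 ± 0.436% of IDH1 and IDH2, and the monocarboxylate transporter SLC16A1 98.4 ± 0.397% against SLC16A3. Lamin messages came mostly from LMNB1 (78.3 ± 0.998%), and LMNA stood at 0.105, 0.159 and 0.160 FPKM.

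Drug-handling genes included GSTP1, a glutathione transferase, at 1246, 1546 and 1535 FPKM, while ABCB1, the efflux pump P-glycoprotein, lay near the floor at 0.104. NR3C1, the glucocorticoid receptor, averaged 15.5 ± 0.942 FPKM. Of 39 HOX genes 7 were expressed, with a median of 0.108 FPKM. HOXD13, a limb homeobox gene, stood at 24.3, 24.1 and 27.9 FPKM and HOXB4 at 11.4, 11.7 and 11.7. Imprinted and cancer-testis genes passed in 4 of 24 cases, with SNRPN at 307 ± 35.8 and NDN at 48.9 ± 2.64, both of the Prader-Willi region, and MEST and SYCP3 at 3.81 and 1.298 FPKM.

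Histone genes differed by class. Of 72 replication-dependent histone genes, whose messages normally end in a stem-loop and not in poly(A), 50 were expressed but with a median of 1.75 FPKM, and 9 reached 10 FPKM. HIST1H2BH was highest at 61.0, 82.1 and 86.5 FPKM. HIST1H4K stood at 52.3, 44.4 and 32.3 FPKM and HIST1H4J, its near copy, at 51.6, 42.9 and 31.9, both highest in replicate 1 and lowest in replicate 3. Variant histones with polyadenylated messages were expressed in 10 of 14 cases, with a median of 129.5 FPKM and H2AFZ at 2120, 2382 and 2489. Library preparation selected poly(A), and its part in the gap between the classes was not tested. H3F3A, a gene for histone H3.3, stood at 11.1, 0.162 and 0.176 FPKM, while its pseudogene H3F3AP4 stood at 2411, 2896 and 2988, and reads can be shared between the pair.

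Non-coding genes included abundant hosts of small nucleolar RNAs. Of 26 long non-coding RNAs listed, 22 were expressed, with SNHG8 at 2113, 2462 and 2352 FPKM and SNHG5 at 995.3, 1257 and 1184. GAS5, another host, averaged 516 ± 32.5 FPKM. HOTAIR, MEG3 and H19 lay near the floor at 0.103 to 0.104 FPKM.

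Names of microRNA precursors gave the highest values of the whole table. They are shown by mature sequence from RefSeq (GRCh38.p14), in RNA letters 5′ to 3′, with the seed, bases 2 to 8, in capitals.
hsa-miR-1244: aAGUAGUUgguuuguaugagaugguu
hsa-miR-5047: uUGCAGCUgcgguuguaaggu
hsa-miR-5187-5p: uGGGAUGAgggauugaagugga
hsa-miR-5187-3p: aCUGAAUCcucuuuuccucag
hsa-miR-25-3p: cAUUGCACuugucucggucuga
No 2 of these 5 share a seed. They lie at chr5:118974640-118974665 (plus strand, MIR1244-2), chr17:64501230-64501250 (minus, MIR5047), chr1:161227195-161227216 and chr1:161227237-161227257 (plus, MIR5187) and chr7:100093571-100093592 (minus, MIR25). MIR1244-3 stood at 908627, 1007746 and 894540 FPKM and MIR1244-2 at 907476, 1007736 and 893026. These 2 names alone held 57.4 ± 2.57% of the summed FPKM of all names. Their 85-base hairpin is also an exact stretch of PTMA transcripts in the GENCODE annotation of GRCh38, and PTMA averaged 9189.7 ± 1257 FPKM. The third name of the family, MIR1244-1, also has an 85-base hairpin inside annotated PTMA transcripts but averaged 0.1196 FPKM. It lies on chromosome 2, whereas MIR1244-2 and MIR1244-3 lie on chromosomes 5 and 12. Whether reads of PTMA entered the values of these names was not tested. Mature microRNAs carry no poly(A) tail, so the values cannot be read as levels of the microRNA.

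Few other microRNA names were high. Of 1283 names 45 were expressed, 33 of them at 100 FPKM or more. RefSeq gave a hairpin for 1053 names. Among the 39 of these that were expressed 17 hairpins (43.6%) lay inside an annotated transcript of another gene. Of those not expressed 127 of 1014 (12.5%) did. Transcripts that retain introns were not left out of this search. The other gene was itself expressed for 13 of the 39 (33.3%) and 70 of the 1014 (6.90%). Some short RNAs were high in 1 library and low in the others. SNORD87 stood at 0.128, 19103 and 0.139 FPKM, MIR5187 at 0.101, 12043 and 0.104, and SNORD47 at 7895, 0.113 and 0.115. SNORD28 and SNORD26 were high in replicate 3 alone, at 9485 and 9478 FPKM. Of 108 short names at 100 FPKM or more in some library, 24 lay near the floor in another (22.2%), against 0 of 2150 other names. Hence the shares leave short RNAs out, and their spread is given apart.

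The 3 libraries gave nearly the same order of genes. Over the 11680 expressed named genes, log2(FPKM + 1) correlated between libraries at Pearson 0.9957, 0.9955 and 0.9963 and Spearman 0.9967, 0.9966 and 0.9973 (replicates 1 and 2, 1 and 3, 2 and 3). These are correlations across genes, which are not independent replicates. Between the same pairs 39, 44 and 41 genes lay 1 or more apart in log2(FPKM + 1). At low levels the added 1 shrinks differences, so this count leaves out genes whose FPKM differed 2-fold. The median SD of log2(FPKM + 1) was 0.12 per gene, and the median coefficient of variation (CV, SD over mean) was 8.96%.

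**Figure D4:**
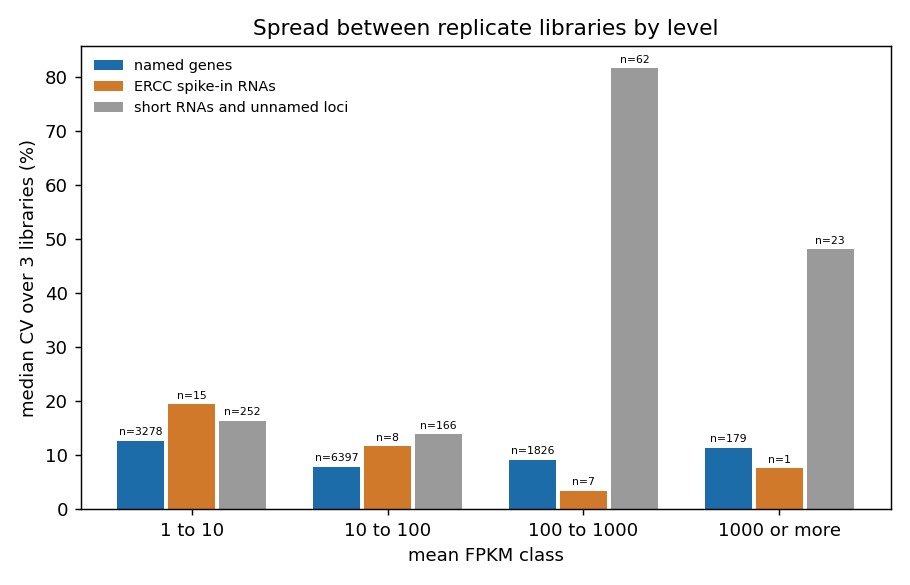
Median CV over the 3 libraries in percent (vertical axis) by class of mean FPKM (horizontal axis) for named genes (blue), ERCC spike-in RNAs (orange) and short RNAs and unnamed loci (grey), with the number of names above each bar. Named genes lie between 7.90% and 12.7% in every class, and short RNAs reach 81.7% between 100 and 1000 FPKM.

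The spread did not fall steadily with level. Named genes had a median CV of 12.7% between 1 and 10 FPKM, 7.90% between 10 and 100, 9.18% between 100 and 1000 and 11.4% above. Spike-in RNAs, which were added to each lysate, had 19.4% (15 RNAs), 11.7% (8), 3.41% (7) and 7.57% (1) in these classes. A CV over 20% was found for 22.6% of genes in the lowest of the 4 classes and for 0 of 179 in the highest.

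Part of this spread was a shift of whole libraries. The median expressed gene lay at -0.08, -0.02 and 0.10 (log2) from its mean in replicates 1, 2 and 3. The 31 spike-in RNAs of 1 FPKM or more lay at -0.03, 0.02 and 0.02. How the spike-ins entered the deposited scale is not given, and whether that scaling set their offsets was not tested. Replicate 3 held the highest value for 8961 of the 11680 genes and replicate 1 the lowest for 7218. The shift of replicate 1 grew with level, from 0.00 between 1 and 10 FPKM to -0.08, -0.15 and -0.20 in the higher classes. All 179 genes at 1000 FPKM or more, and 1794 of 1826 between 100 and 1000, were lowest in replicate 1. Replicate 2 moved the other way, from -0.09 to -0.02, 0.05 and 0.10.

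**Figure D5:**
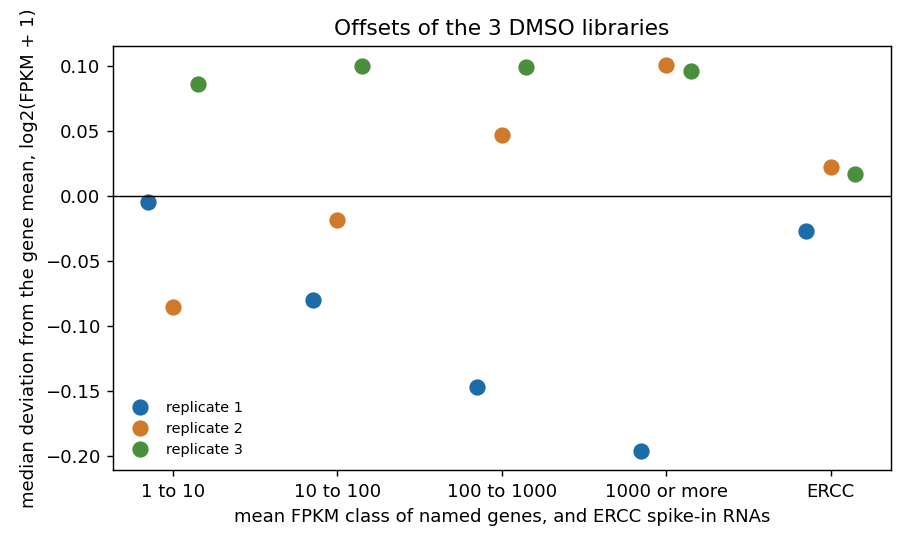
Median deviation of each library from the gene mean, log2(FPKM + 1) (vertical axis), for named genes by class of mean FPKM and for ERCC spike-in RNAs (horizontal axis), 1 point per library. Replicate 1 falls to -0.20 in the highest class, replicate 3 stays between 0.09 and 0.10, and the spike-in points lie between -0.03 and 0.02.

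Single genes ranged from nearly constant to unstable. Among genes of 10 FPKM or more, MCU, the mitochondrial calcium channel, was steadiest at 17.8, 17.7 and 17.8 FPKM (CV 0.0949%). GRINA followed at 0.160%, then the kinase MKNK1 at 0.376% and the GTPase RAP1A at 0.419%. The library shifts enter these values too. At the other end stood RPL17-C18orf32, a readthrough name that joins 2 neighbouring genes, at 29.9, 0.191 and 0.246 FPKM. Its component C18orf32 was at 7.44, 33.3 and 41.1 FPKM, so that the readthrough was high in the library where the component was low. RPS10-NUDT3 stood at 9.16, 2.92 and 19.3 FPKM, NME1-NME2 at 24.6, 29.2 and 4.73, and PTCD1 at 15.9, 1.76 and 16.6. RPL21 stood at 380, 227 and 631 FPKM beside its pseudogene RPL21P28 at 2061, 2783 and 2358. Of 18 names that join 2 symbols 5 had a CV over 20% (27.8%, median CV 13.4%), against 59 of 8384 other genes (0.704%, median 8.28%).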

How the data were processed

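RNA was measured in 3 libraries of DMSO-treated MOLT4 cells, and the 9 treated libraries were not used. The deposited values are FPKM per gene, per the file headers. The submitters' processing notes name HISAT, Cufflinks 2.0.0 and hg19, and how the spike-ins entered the deposited scale and how shared or antisense reads were assigned are not given in the sources used here. Of 23713 entries, 92 ERCC entries and 2 repeated symbols (the first was kept) were removed, and 26 names look like dates. Without counts in the table, the depth of each library is unknown and intervals were not computed.

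Levels are means ± SD of 3 libraries on the deposited scale. A mean of 1 FPKM was the threshold, log2 values used a pseudocount of 1, near the floor means within 10% of it in all 3 libraries, and genes of 10 FPKM or more entered the extremes of CV. With 1 group there was no test. "Did not differ beyond their spread" means that the difference of 2 means was smaller than the sum of their SDs. The members and the 40 gene lists were chosen with earlier results of these data known, and the paralog families after values were seen.

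Named genes follow a rule: the 20 highest, every member of the T-lineage and leukemia lists, expressed members of the lists of other cell types, the highest 6 of other lists, the leading pair of each family, the 10 largest and 10 smallest CVs, and the 10 highest genes outside the lists. Genes named outside it, among them CDK9, CDK7, CRBN, HLA-DRA, NR3C1, ABCB1, LMNA, SAMHD1, H3F3A and low markers such as PAX5 and MPO, were chosen after their values were seen. Some members that the rule names are not reported here. Alternatives changed 1 choice at a time. The scripts were checked on simulated data and ran in Python 3.11.15 with pandas 2.3.3, numpy 2.4.6 and matplotlib 3.10.9.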

Additional observations from a re-analysis of the deposited data

How the results depend on the processing

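Precision was limited by 3 libraries and unknown depth. The count of expressed names ranged from 10009 to 12988 over its alternatives, within 1.5 times of 12183. Rescaling each library to the same sum, which the MIR1244 names dominate, gave 5490 names between 1 and 10, 514 between 100 and 1000 and 77 at 1000 or more, and 14 expressed genes of other cell types in place of 28. That number was 45 at 0.5 FPKM and 11 at 5 FPKM. Of all names, the highest 10, 100 and 1000 held 60.1%, 73.0% and 87.3% of the sum. Without short RNAs these were 7.36%, 36.5% and 69.5%, and without the 2 MIR1244 names, chosen after seeing the data, 7.49%, 36.8% and 70.2%. Without histone and ribosomal protein genes the highest 10 and 1000 held 66.9% and 86.4%. The median SD of log2(FPKM + 1) over all expressed names, 0.122, was 0.0821 with equal gene medians, 0.0762 with no filter on low values, which takes in names at the floor, and 0.0875 to 0.137 with 1 replicate left out, lowest without replicate 1. Of 40 lists, 12 moved by over 1.5 times at 5 FPKM and 9 under rescaling. Without replicate 3, FCER1G and ITGB3 fell under 1 FPKM, and the myeloid and erythroid lists kept 1 member each, and 1 of 16 liver and muscle genes passed without replicate 1 or without replicate 3. No paired analysis was possible because only 1 group was used.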

Other observations

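Several abundant genes in no list, named here after their values were seen, are best known from other cell types. AIF1, a calcium-binding protein used as a marker of macrophages and microglia, stood at 1555, 1957 and 1885 FPKM in replicates 1, 2 and 3, while the listed myeloid marker CD33 (0.103) lay near the floor and MPO was low at 0.127. MZB1, a secretory-pathway chaperone of plasma and marginal zone B cells, stood at 541, 639 and 612 FPKM. BEX1, a gene studied mainly in neurons, stood at 459.9, 535 and 544 FPKM. TSPAN7, a tetraspanin of brain, averaged 338 ± 30.2 FPKM and IGFBP2, a secreted binding protein of insulin-like growth factors, 357.5 ± 50.2. MYO7B, a myosin of the intestinal brush border, stood at 239, 303 and 310.1 FPKM, and MFAP4, a protein of extracellular microfibrils, at 208, 250.5 and 250.4. In each of these 7 genes the 3 libraries lay close together and replicate 1 was lowest.

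Genes known from thymocytes were also high among those in no list. MAL, a raft protein of T cells, stood at 616, 788 and 782 FPKM. ITM2A, a membrane protein of thymocytes, stood at 836, 978 and 979.6 FPKM. Both were lowest in replicate 1, like the listed genes above 100 FPKM in general.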
